A study of Mus musculus with 42 samples.

Results

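Wnt proteins are secreted ligands that bind Frizzled receptors on the cell surface. In the canonical branch the ligand, a Frizzled and an Lrp co-receptor hold back the degradation of beta-catenin, which then joins Tcf and Lef factors at target genes. Secreted Frizzled-related proteins (Sfrp) bind Wnt ligands outside the cell, and most Dickkopf proteins (Dkk) occupy the co-receptor, so both classes of inhibitor limit the signal. In vessels the pathway is studied in smooth muscle growth and calcification, and in skeletal muscle in regeneration and at the neuromuscular junction.

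The genes described here were all those whose gene name on the array was Wnt with a number and, for most, a letter, Fzd with a number, Sfrp1 to Sfrp5 or Dkk1 to Dkk4. The names matched 37 of the 21186 named genes on the array, read by 51 of the 34891 probes with a gene name. They comprised 19 Wnt ligands, 10 Frizzled receptors, 4 Sfrp genes and 4 Dkk genes. RNA of whole aorta and whole skeletal muscle from male mice was hybridised to 42 one-colour Agilent arrays, 3 mice in each of 7 groups and 2 tissues. The healthy group (G) was C57BL/6 and the spontaneous diabetic group (A) was KK/Ay, an obese strain that carries the yellow agouti allele and develops type 2 diabetes. The diabetic macroangiopathy group (C) was KK/Ay fed a high-fat diet, with L-NAME in the drinking water to block nitric oxide synthase. The SHENQI compound group (B), the yangyinyiqi group (D), the huoxue group (E) and the rosiglitazone group (F) shared this diet and drug and received, by gavage, a compound of several herbs, a herbal formula, a formula of salvia and rhubarb, or rosiglitazone, a PPAR-gamma agonist. Groups G, A and C received saline by gavage. The methods give 18 to 20 weeks as the age of the mice tested. The diet and L-NAME were given for 8 weeks to set up the model, and gavage lasted 8 weeks. An age at tissue collection is not stated. Strain differed together with disease in every comparison with healthy mice, so the strain and the disease cannot be told apart there.

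A level below is a log2 normalised intensity averaged over the probes of a gene, and a difference is a difference of such levels. One level cannot be set against that of another gene, because each probe has its own response. A gene was tested in a tissue when 1 of its probes was marked well above background by the scanner software on the 3 arrays of any 1 group. In aorta 28 of the 37 genes passed (11 Wnt, 10 Fzd and 7 inhibitors) and in skeletal muscle 25 passed (10 Wnt, 9 Fzd and 6 inhibitors), 24 of them in both. The 8 genes that passed in neither tissue were Dkk4, Wnt2b, Wnt3, Wnt3a, Wnt7a, Wnt8a, Wnt8b and Wnt10b. Wnt4 passed only in muscle, and Dkk1, Fzd3, Wnt2 and Wnt16 passed only in aorta. A gene that passed through the group where it was high was likelier to differ, so counts below are of tested genes and not of the whole family.

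Between 49.06% and 73.53% of probes were well above background on an array. Summed over 6 smooth muscle markers, aorta arrays reached log2 levels of 13.12 to 18.13 and muscle arrays 12.11 to 13.76. Summed over 6 skeletal muscle markers, muscle arrays reached 19.29 to 19.69 and aorta arrays 11.37 to 18.51, so the aorta samples held widely unlike amounts of skeletal muscle transcripts. The brown adipocyte markers Ucp1 and Cidea summed to 15.93 to 18.55 in aorta and 8.49 to 11.78 in muscle. Adipocyte markers summed to 14.69 to 17.37 in aorta and 12.05 to 15.59 in muscle, and cardiac muscle markers to 7.78 to 15.48 and 12.03 to 13.41. The part of these transcripts in the differences between the tissues was not tested. The 42 arrays lay on 11 slides. All arrays of the huoxue and rosiglitazone muscles, and those of healthy muscles 1 and 2, lay on slides 1 and 2. Healthy aortas 1 and 3 lay on slide 3 with 1 diabetic and 1 SHENQI aorta.

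The probes below are printed because the reading of a result depended on what they can bind. The first pair, in the array's annotation on mouse build mm9, lies at chr1:59541367-59541426 (Fzd7) and chr11:102467613-102467672 (Fzd2), both on the plus strand. Capitals mark the bases identical between the pair.
Fzd7: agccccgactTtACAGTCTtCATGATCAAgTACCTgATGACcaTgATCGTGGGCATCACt
Fzd2: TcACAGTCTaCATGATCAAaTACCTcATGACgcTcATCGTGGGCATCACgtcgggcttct
Of 50 aligned bases, 42 were identical. Among 1260 pairs of probes of different genes in the family this was the only pair with 40 or more identical bases. Whether either probe also bound the transcript of the other gene was not tested.

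A further 3 probes are shown because they were read above background on only part of the arrays. Their mm9 positions on the plus strand are chr4:136851690-136852258 for Wnt4, chr14:29331746-29335708 for Wnt5a and chr11:59144511-59144570 for Wnt9a, and the first and second span an intron.
Wnt4: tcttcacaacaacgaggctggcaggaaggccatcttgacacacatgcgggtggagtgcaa
Wnt5a: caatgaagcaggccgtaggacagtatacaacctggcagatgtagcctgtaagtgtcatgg
Wnt9a: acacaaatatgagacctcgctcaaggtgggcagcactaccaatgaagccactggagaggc
The Wnt4 probe was well above background on 21 of 21 muscle arrays and on 5 of 21 aorta arrays. The Wnt5a probe was so on 6 aorta arrays and 1 muscle array, while the other Wnt5a probe was so on 20 and 21. The Wnt9a probe was so on no aorta array and on 7 muscle arrays.

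Levels of the ligands, receptors and inhibitors differed between the tissues, although 24 of the genes passed the filter in both. Over the 7 groups, 18 of the 29 genes tested in either tissue were higher in aorta and 11 higher in skeletal muscle, all called by limma at an adjusted p below 0.05. Of all 16176 genes tested, 76.9% were called in this contrast, 40.4% higher in aorta and 36.5% higher in muscle. In these whole-tissue samples, fewer cells of a type and less RNA per cell cannot be told apart. Tissue and slide were nearly confounded, since only 1 slide held arrays of both tissues.

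The largest difference towards aorta was that of Sfrp2, an extracellular Wnt binder made by fibroblasts and smooth muscle. Its level averaged 3.26 ± 0.20 (SE) higher in aorta on the log2 scale, 9.57-fold. Dkk3, a divergent Dickkopf that does not act through the co-receptor in the way of the others, was 1.67 ± 0.18 higher. The receptors Fzd1 and Fzd2 were 1.54 ± 0.09 and 1.53 ± 0.15 higher, Sfrp1 was 1.33 ± 0.10 higher and the ligand Wnt2 was 1.25 ± 0.12 higher, where Wnt2 was well above background on only 4 of 21 muscle arrays. Dkk1, the classical co-receptor antagonist, and the ligand Wnt16 were well above background on no muscle array, which gave only bounds, at least 1.81-fold and at least 2.13-fold higher in aorta.

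Towards skeletal muscle the largest difference was that of Fzd9, a receptor studied at the neuromuscular junction, with aorta minus muscle at -4.61 ± 0.12 (24.4-fold). Its aorta levels were 6.20, 6.40 and 6.53 in healthy mice and its muscle levels 10.25, 11.13 and 10.56. Wnt4, a ligand active in myogenesis, differed by -2.75 ± 0.21, with healthy levels of 8.41, 8.76 and 9.13 in muscle and 5.05, 5.27 and 6.17 in aorta. Wnt4 passed the filter through muscle alone, and its aorta values were mostly not well above background, so the size of its difference is uncertain. Without rosiglitazone aorta 1, where Wnt4 was at 9.72, it was -2.95. On the same scale Fzd10 differed by -1.96 ± 0.23, Dkk2 by -1.40 ± 0.13, the non-canonical ligand Wnt11 by -1.34 ± 0.10 and Wnt9a, a ligand of the canonical branch, by -0.89 ± 0.06.

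**Figure D1:**
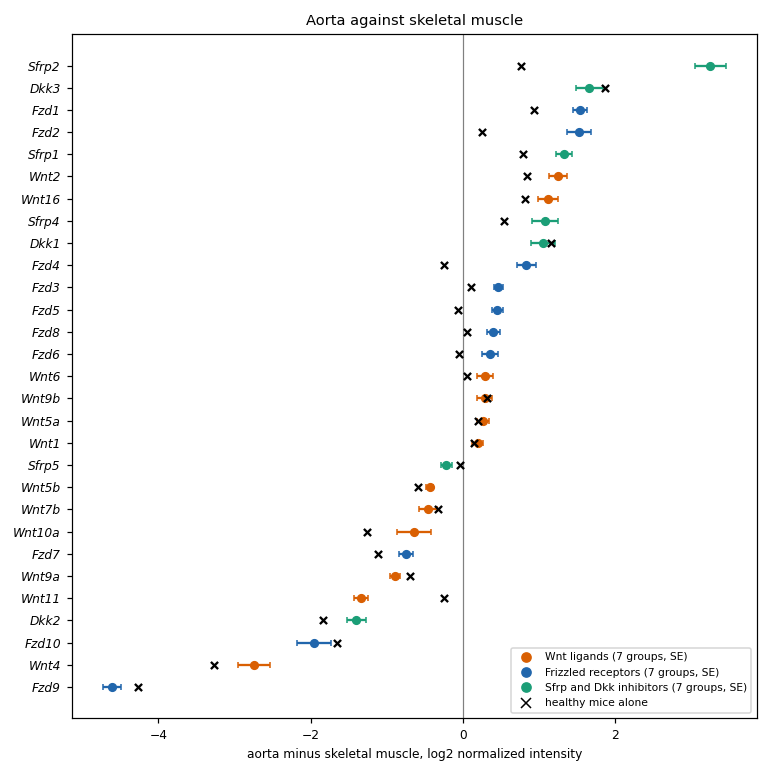
Difference in log2 normalised intensity between aorta and skeletal muscle (x axis) for the 29 genes tested in either tissue (y axis). Coloured points are the mean over 7 groups with its SE, and crosses are healthy mice alone. The points run from -4.61 for Fzd9 to 3.26 for Sfrp2, and the crosses of Sfrp2, Fzd2 and Wnt11 lie nearer to 0.

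In healthy mice alone 12 of the 29 genes were called, against 30.6% of all genes. Fzd9, Wnt4 and Dkk3 were among them, at -4.27, -3.28 and 1.87. Sfrp2 was at 0.76 (adjusted p above the threshold), Fzd2 at 0.26, Fzd4 at -0.25 and Wnt11 at -0.24. These were all smaller in size than their means over all groups, and Fzd4 had the opposite sign to its mean (0.84).

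The diabetic group was compared with healthy mice to ask which genes accompany spontaneous diabetes in the KK/Ay strain. In skeletal muscle 8 of 25 tested genes rose in diabetic mice and none fell. The 8 were the ligands Wnt11, Wnt5a, Wnt5b and Wnt9a, the receptors Fzd9 and Fzd10, and the inhibitors Dkk3 and Dkk2. Of all 14201 genes tested there, 26.5% were called and 15.6% were called higher. The median difference was 0.16 over the family and 0.034 over all genes tested. Wnt5b and Dkk2 are named to complete the list, after their values were seen.

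Wnt11, Wnt5a and Wnt5b are ligands known mainly for branches that do not run through beta-catenin. Wnt11 was at 7.73, 7.96 and 7.49 in healthy muscles and at 9.04, 8.94 and 8.79 in diabetic muscles. The groups did not overlap, and the difference was 1.20 ± 0.16 (SE), 2.30-fold, with a limma adjusted p of 4.14e-05. Wnt5a was at 6.19, 6.13 and 5.73 against 6.59, 6.75 and 6.79, a difference of 0.69 ± 0.12 (adjusted p = 0.000658). Its 2 probes gave 0.75 and 0.64, the second being the printed one that was mostly not above background in muscle. Wnt5b rose by 0.62 ± 0.10 (adjusted p = 0.000236). Wnt9a was at 7.07, 7.55 and 6.96 in healthy and 7.74, 7.89 and 7.85 in diabetic muscle, a difference of 0.64 ± 0.14 (adjusted p = 0.0034). These means did not overlap, but of its 2 probes the brighter one, with a difference of 0.57, had 1 diabetic muscle (9.19) below the highest healthy one (9.27). The other, printed above and mostly not above background in muscle, gave 0.70.

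Among receptors, Fzd9 was at 10.25, 11.13 and 10.56 in healthy muscle and at 12.27, 11.72 and 12.18 in diabetic muscle. All 3 diabetic arrays lay above all 3 healthy ones, by 1.41 ± 0.19 (2.65-fold, adjusted p = 5.12e-05). Fzd10 was at 7.21, 6.79 and 7.95 against 8.39, 8.51 and 8.42, with the widest spread in the healthy group, and rose by 1.12 ± 0.18 (2.17-fold, adjusted p = 0.000307). Both of its probes gave a rise, of 1.07 and 1.18. Fzd4, the receptor with a change in aorta, stayed at a difference of -0.04 in muscle.

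Of the inhibitors, Dkk3 showed the largest difference in muscle, with levels of 7.77, 8.17 and 7.38 in healthy mice and 9.93, 9.75 and 9.77 in diabetic mice. All diabetic arrays lay well above the healthy ones, and the mean rose by 2.04 ± 0.27 (4.12-fold, adjusted p = 4.69e-05). Dkk2, which can activate or inhibit the co-receptor depending on its partner, was at 8.53, 8.87 and 8.35 against 9.08, 8.69 and 9.50. These groups overlapped, and the difference was 0.51 ± 0.18 (adjusted p = 0.0448).

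The promoter of Wnt11 is shown because this ligand was higher in KK/Ay muscle in both comparisons and had a response in aorta that was called different from that in muscle for macroangiopathy. In RefSeq annotation of GRCm38.p6 it lies at chr7:98834862-98835161 on the plus strand, around the transcript start, and capitals mark a match to the Tcf and Lef core motif CTTTGA, searched on both strands (TCAAAG on the other).
Wnt11: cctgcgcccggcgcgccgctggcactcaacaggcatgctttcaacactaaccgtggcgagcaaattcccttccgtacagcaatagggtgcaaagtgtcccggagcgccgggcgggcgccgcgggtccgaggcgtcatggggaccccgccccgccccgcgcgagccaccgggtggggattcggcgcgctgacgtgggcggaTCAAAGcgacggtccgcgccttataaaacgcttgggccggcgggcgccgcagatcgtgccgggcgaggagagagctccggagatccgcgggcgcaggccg
The motif was found in 4 of the 28 promoters listed for 25 genes of the family (14.3%), those of Dkk1, Fzd1, Wnt5b and Wnt11. The second promoter listed for Wnt11, chr7:98838595-98838894, held no match. It was in 5257 of 32851 promoters of the same length in all (16%). A match is a string of letters and was not tested as a binding site.

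Macroangiopathy was compared with healthy mice in the same way, and since both comparisons share the healthy arrays their values are given side by side and not as support for each other. In muscle 7 of 25 genes rose and 1 fell, where 24.9% of all genes tested were called, 14.7% higher and 10.2% lower. The differences were 1.70 ± 0.27 for Dkk3 (3.26-fold, adjusted p = 0.000259), 1.20 ± 0.19 for Fzd9 (adjusted p = 0.000239), 1.17 ± 0.16 for Wnt11 (adjusted p = 5.96e-05) and 0.88 ± 0.18 for Fzd10 (adjusted p = 0.00219). Wnt9a, Wnt5a and Wnt5b rose by 0.51, 0.50 and 0.32. Macroangiopathy muscles had Dkk3 at 9.70, 9.29 and 9.45 and Wnt11 at 8.97, 8.84 and 8.88, again above every healthy array. The Wnt9a groups overlapped, with 7.88, 7.46 and 7.75 against a highest healthy value of 7.55. Leaving out any of healthy muscles 1 and 3 or macroangiopathy muscles 1 and 3 ended the Wnt9a call, with differences of 0.39 to 0.48.

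Sfrp2 was the gene that fell in muscle. It was at 9.25, 8.53 and 8.48 in healthy mice and at 7.86, 7.88 and 7.67 in macroangiopathy mice, with no overlap and a difference of -0.95 ± 0.25 (adjusted p = 0.00911). Without healthy muscle 1 the difference was -0.70 and was not called. Diabetic muscles were between, at 8.29, 7.98 and 8.44, a difference from healthy of -0.52 that was not called.

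**Figure D2:**
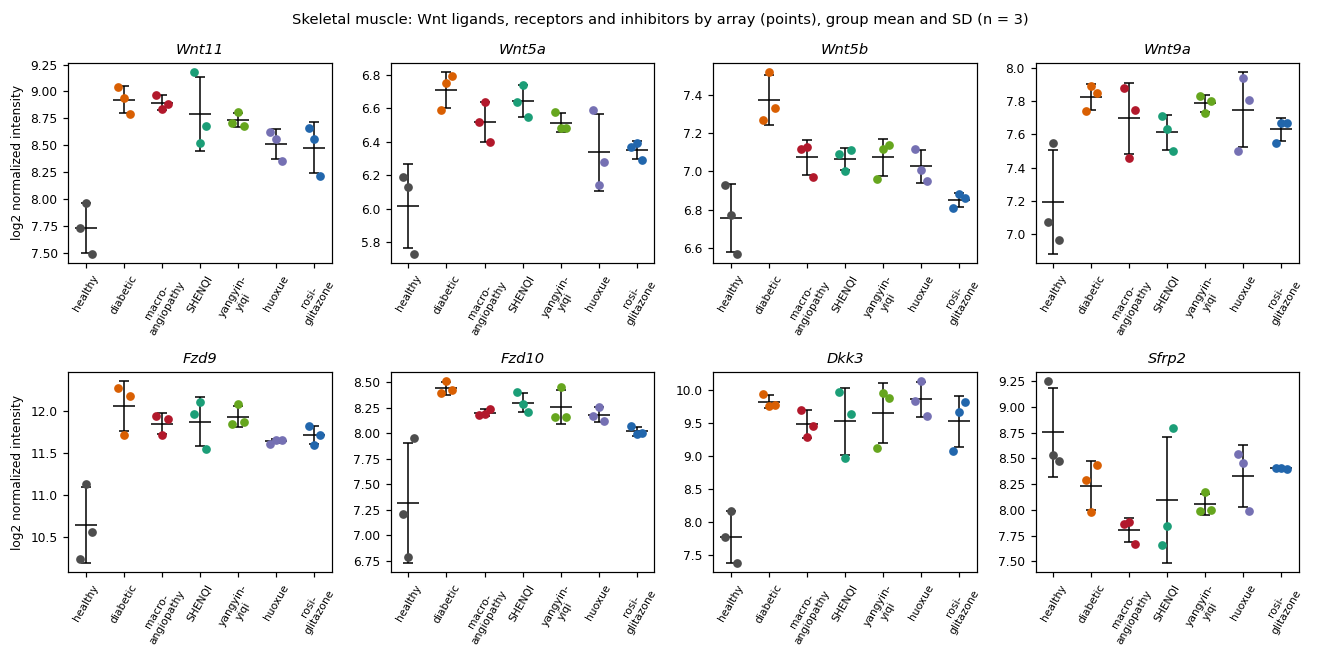
Log2 normalised intensity in skeletal muscle (y axis) by group (x axis) for 8 genes, with a point for each mouse and the mean and SD of 3. Healthy levels of Wnt11 (7.49 to 7.96) and Dkk3 (7.38 to 8.17) lie below every point of the 6 KK/Ay groups, whereas Sfrp2 is highest in a healthy mouse (9.25).

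Slides 1 and 2 held 2 of the 3 healthy muscles. Without the arrays of slides 1, 2 and 3, chosen after seeing the data, only healthy muscle 3 remained. It was assumed to vary like the other groups. This array had the lowest Dkk3 (7.38) and Wnt11 (7.49) of the muscle arrays. Its Fzd10 (7.95) was the highest of the healthy muscles, and its Fzd9 lay between those of the others. Against this array alone Dkk3 differed by 2.44 in diabetic and 2.10 in macroangiopathy muscle. Fzd9 was at 1.49 and 1.29 and Wnt11 at 1.44 and 1.41. Fzd10 was then at 0.49 in diabetic and 0.25 in macroangiopathy muscle, and Sfrp2 at -0.67 in the latter. With 1 healthy mouse left, an effect of slide and the level of that mouse cannot be told apart. Markers of other cells moved in the same contrasts. Macrophage markers summed to 10.78 to 12.19 in healthy muscle and 10.28 to 10.37 in diabetic muscle, with all 5 markers lower and 4 of them called. Both brown adipocyte markers, Ucp1 and Cidea, were higher in diabetic muscle, summing to 10.24 to 11.78 against 8.49 to 9.88. Of the smooth muscle markers 2 of 6 were called higher, Smtn by 1.27 (adjusted p = 1.93e-05) and Lmod1 by 0.91 (adjusted p = 0.00911) in diabetic muscle. They were higher by 1.12 and 0.89 in macroangiopathy muscle. Without a call, the other 4 were lower in diabetic muscle, and 2 of the 6 were lower in macroangiopathy muscle. The summed level was 13.04 to 13.16 in diabetic and 12.11 to 13.76 in healthy muscle. Of the adipocyte markers Lep was higher (1.74) and Retn lower (-2.91) in diabetic muscle. Myh4, 1 of 6 skeletal muscle markers, was called higher there (0.36), while 3 of the 6 were lower. The part of these markers in the results was not tested. Fibroblast markers summed to 12.13 to 13.43 in healthy, 12.62 to 12.99 in diabetic and 12.65 to 12.82 in macroangiopathy muscle, and none of 5 was called. Their part was not tested either.

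In aorta only Fzd4 rose in diabetic mice after adjustment, 1 of 28 genes, where 3.43% of 15844 genes were called and 1.53% higher. Fzd4 is a receptor of endothelial cells that also answers the ligand Norrin. Healthy aortas had levels of 11.11, 11.65 and 11.56 and diabetic aortas 13.99, 12.87 and 12.83. The groups did not overlap, and the difference was 1.79 ± 0.36 (3.47-fold, adjusted p = 0.011). At an unadjusted p below 0.05, 11 genes were higher and none lower, against 10.7% of all genes higher. The median difference was 0.483 over the family and 0.019 over all genes tested.

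The next genes by the naming rule did not pass adjustment. Sfrp2 was at 7.32, 11.04 and 10.18 in healthy and 12.45, 11.08 and 12.34 in diabetic aortas, a difference of 2.44 ± 0.68 (adjusted p = 0.0591). Healthy aorta 1 stood far below the rest, and the groups were nearly touching. Fzd9 differed by 1.22 ± 0.41, Sfrp4 by 1.20 ± 0.46 and Sfrp1 by 1.04 ± 0.36, with adjusted p-values of 0.113, 0.165 and 0.13. Single arrays moved these values. Without healthy aorta 1 Sfrp2 differed by 1.34 (adjusted p = 0.192), Sfrp4 by 0.59 and Sfrp1 by 0.64, and without healthy aorta 2 Sfrp2 (3.20, adjusted p = 0.0116) and Sfrp1 (1.33, adjusted p = 0.0478) were called. Without diabetic aorta 1 Sfrp1 differed by 0.67, while Fzd9 was called at 1.66 (adjusted p = 0.0398), and without diabetic aorta 2 Fzd9 differed by 0.57. Diabetic aorta 2 had the highest Fzd9 of all aortas, 8.90, and also the highest sum of skeletal muscle markers, 18.51. Rosiglitazone aorta 1, with the next highest sum (17.41), had Fzd9 at 6.84. The part of skeletal muscle transcripts in the Fzd9 values was not tested. Groups did not overlap for 8 genes, all higher in diabetic mice, against 10.1% of all genes.

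In macroangiopathy aorta 3 of 28 genes rose and none fell, where 6.37% of all genes were called and 3.26% higher. Fzd2 was at 6.46, 8.64 and 7.52 in healthy and at 9.34, 9.40 and 9.80 in macroangiopathy aortas, a difference of 1.97 ± 0.54 (3.93-fold, adjusted p = 0.0394). Both Fzd2 probes gave a rise, of 2.46 for the printed one and 1.48 for the other. The printed Fzd7 probe, which shares bases with it, gave 0.59 and the other Fzd7 probe 0.91, and Fzd7 did not pass adjustment. Dkk3 was at 8.35, 10.58 and 9.99 against 11.56, 11.90 and 11.93, a difference of 2.15 ± 0.59 (4.44-fold, adjusted p = 0.0402). Sfrp2 was at 11.79, 11.98 and 11.98 in macroangiopathy, a difference of 2.40 ± 0.68 (5.29-fold, adjusted p = 0.0457). For all 3 the healthy values were spread widely and the macroangiopathy values lay close together. Fzd4 was at 13.10, 12.37 and 12.35, a difference of 1.17 ± 0.36 (adjusted p = 0.0596). At an unadjusted p, 12 genes were higher and none lower, against 13.9% of all genes higher, and 14 genes did not overlap, all higher, against 16.5%.

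**Figure D3:**
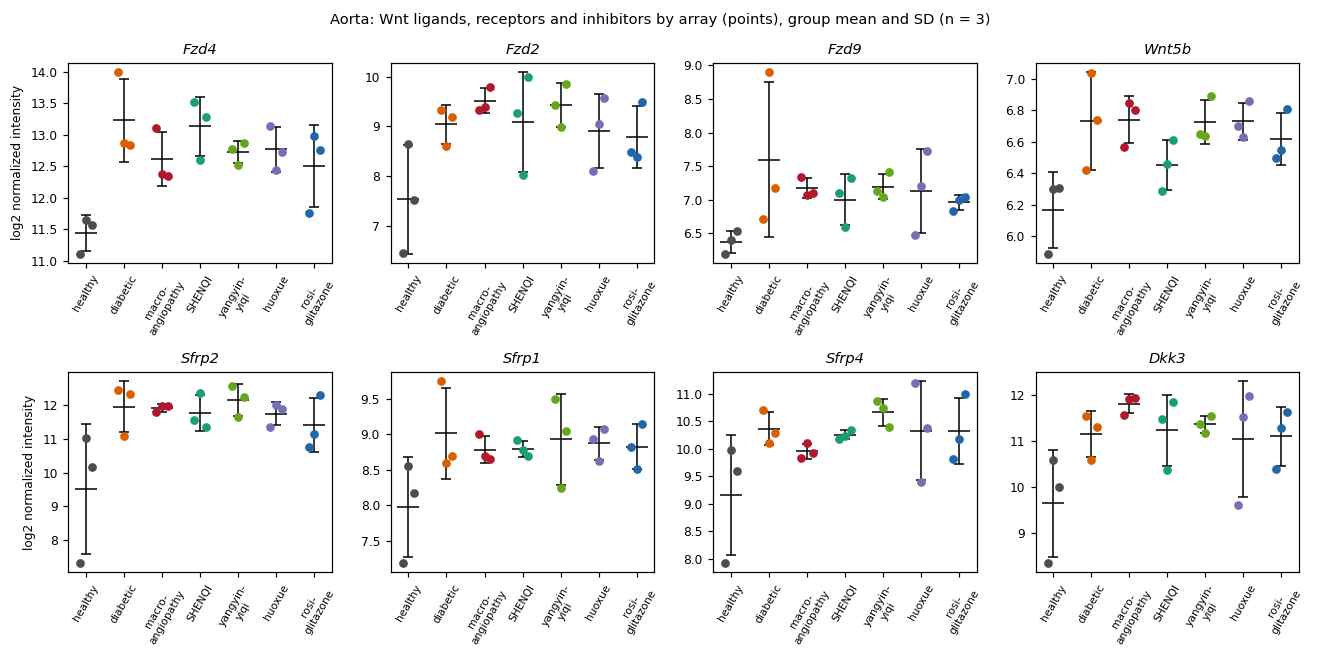
Log2 normalised intensity in aorta (y axis) by group (x axis) for 8 genes, with a point for each mouse and the mean and SD of 3. The lowest healthy point is 7.32 for Sfrp2, 8.35 for Dkk3 and 6.46 for Fzd2, all from healthy aorta 1, and Fzd4 in healthy mice (11.11 to 11.65) lies below every other group.

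These aorta values rested on few healthy arrays. Healthy aorta 1 was the lowest of 21 aorta arrays by more than 1 log2 unit for 4 genes, Sfrp2, Dkk3, Sfrp4 and Fzd2. Its smooth muscle markers summed to 13.12, against 16.80 and 15.79 in the other healthy aortas, 16.67 to 17.58 in diabetic and 17.46 to 17.94 in macroangiopathy aortas. All 6 smooth muscle markers were higher in both disease groups at an unadjusted p, 2 of them after adjustment in macroangiopathy. Its fibroblast markers had the lowest sum of the aorta arrays, where the other healthy aortas reached 13.06 and 12.99 and diabetic aortas 13.33 to 13.73, and 1 of 5 was called higher in each disease group. Its lymphocyte markers summed to 15.04, the highest of the aorta arrays. No endothelial marker was called in either disease group. In diabetic aorta 4 of 5 were higher, Vwf by 1.53 (limma adjusted p = 0.0686), and 1 was lower. In macroangiopathy 3 were higher and 2 lower. Of the adipocyte markers Lep was called higher (2.84) and Retn lower (-3.42) in diabetic aorta, where 3 of the 5 were higher. The part of these markers in the results was not tested. Without healthy aorta 1 the macroangiopathy differences were 1.31 for Sfrp2, 1.51 for Dkk3 and 1.43 for Fzd2 and none was called, whereas Fzd4 in diabetic aorta remained called when any single array was left out, at 1.42 to 1.99. Within slide 3, with 1 diabetic and 2 healthy aortas, Fzd4 differed by 2.65, Sfrp2 by 3.70, Sfrp1 by 2.07 and Sfrp4 by 1.94. Healthy aorta 1 was among these arrays. The diabetic one was diabetic aorta 1, the highest of all aortas for Fzd4 (13.99) and Sfrp1 (9.75). With slide as a fixed block Fzd4 differed by 2.51 (adjusted p = 0.298). Without slides 1, 2 and 3, which leaves 1 healthy aorta, Fzd4 differed by 1.21 (adjusted p = 0.313) and none of the 28 genes was called in either comparison.

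The change of a gene in aorta was set against its change in muscle in a fit of all 42 arrays, to test whether the responses differed. For diabetic against healthy mice 2 genes were called, against 0.896% of all 16176 genes. Fzd4 changed by 1.79 in aorta and -0.04 in muscle, a difference of 1.84 ± 0.46 (adjusted p = 0.047), and Sfrp2 by 2.44 and -0.52, a difference of 2.96 ± 0.75 (adjusted p = 0.048). For macroangiopathy 2 genes were called, against 3.16% of all genes. Sfrp2 changed by 2.40 in aorta and -0.95 in muscle, a difference of 3.35 ± 0.75 (adjusted p = 0.0113). Wnt11 changed by -0.34 in aorta and 1.17 in muscle, a difference of -1.51 ± 0.35 (adjusted p = 0.0155), and in diabetic mice the Wnt11 difference of -1.38 missed the threshold (adjusted p = 0.0513). In the other 5 comparisons no gene of the family was called, against 0% of all genes for macroangiopathy against diabetes, SHENQI and yangyinyiqi, 0.13% for huoxue and 0.0124% for rosiglitazone.

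Macroangiopathy was compared with diabetes to ask what the diet and L-NAME added within KK/Ay. No gene of the family was called in aorta or muscle by limma, and no gene of the array was (0% of genes tested in each tissue). At an unadjusted p below 0.05, none of the family in aorta and 1 in muscle passed, against 1.78% and 3.69% of all genes. That gene was Wnt5b, at 7.27, 7.52 and 7.33 in diabetic and 7.12, 7.13 and 6.97 in macroangiopathy muscle, a difference of -0.30 ± 0.10 (adjusted p = 1).

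Each of the 4 treatments was set against the macroangiopathy group. In aorta none of the 28 genes was called under SHENQI, yangyinyiqi, huoxue or rosiglitazone, and none passed an unadjusted p of 0.05. No gene of the whole array was called there (0% in each), and 1.34%, 0.379%, 0.77% and 2.88% of all genes passed unadjusted. Median differences over the family were -0.009, -0.007, -0.061 and -0.071. Under SHENQI, aorta Fzd4 was at 13.51, 12.60 and 13.28 and Sfrp2 at 11.58, 12.37 and 11.37, both within or close to the spread of macroangiopathy and above all healthy arrays. Under rosiglitazone, Fzd4 was at 11.76, 12.98 and 12.75 and Sfrp2 at 10.76, 11.16 and 12.31, with a wider spread.

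In muscle, SHENQI and yangyinyiqi gave no call, and no gene of the array was called (0% in each). No member passed unadjusted under SHENQI, where 1.18% of all genes did. Under yangyinyiqi Dkk2 alone did, again against 1.18%, with 9.46, 9.19 and 8.98 against 8.90, 8.72 and 8.56, a difference of 0.49 ± 0.18 (adjusted p = 1). SHENQI-treated muscles had Wnt11 at 9.18, 8.52 and 8.68 and Dkk3 at 9.97, 8.97 and 9.63, around the macroangiopathy levels and above the healthy ones.

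Huoxue gave 3 calls among 25 genes in muscle, against 17.7% of all genes, and 7 genes passed unadjusted, against 32.7%. Sfrp5, an inhibitor also secreted by fat cells, was at 7.42, 7.30 and 7.35 against 6.67, 6.76 and 6.67, a rise of 0.66 ± 0.16 (adjusted p = 0.0109) with no overlap. Sfrp1 was at 7.70, 7.61 and 7.54 against 7.35, 7.38 and 7.14 and rose by 0.33 ± 0.11 (adjusted p = 0.0396). Fzd5, a receptor of canonical ligands, was at 5.63, 5.82 and 5.60 against 6.23, 6.08 and 6.16 and fell by 0.48 on the log2 scale (adjusted p = 0.0343). Fzd5 was well above background on none of the huoxue arrays and on 2 of 3 macroangiopathy arrays, which bounds the fall at least 1.07-fold. Huoxue muscle arrays had 49.06% to 52.33% of all probes well above background and macroangiopathy muscle arrays 56% to 61.1%. The part of this in the Fzd5 reading was not tested. Leaving out any single array of the pair of groups ended the Sfrp1 call, and leaving out any but huoxue muscle 2 ended the Fzd5 call. Of the 2 Sfrp1 probes, the one above background on all muscle arrays was at 9.23, 8.92 and 8.86 under huoxue against 8.77, 8.88 and 8.56, an overlap, and its difference of 0.27 was not called when taken alone (adjusted p = 0.177). The other, above background on no muscle array, gave 0.39. Under huoxue 5 of 6 skeletal muscle markers were lower, 3 of them called, and 1 was higher. The largest differences were -0.99 for Myh4, -0.75 for Mylpf and -0.54 for Myh1. The 6 summed to 19.29 to 19.38 against 19.67 to 19.69. Cdh5, 1 of 5 endothelial markers, was also called lower (-0.85), while 3 of the 5 were higher. Csf1r, 1 of 5 macrophage markers, was called higher (0.40), while 2 of the 5 were lower. The part of these markers in the huoxue calls was not tested.

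Rosiglitazone gave 1 call in muscle, against 5.51% of all genes, and 8 genes passed unadjusted, against 21.6%. Sfrp1 was at 7.92, 7.64 and 7.68 and rose by 0.46 ± 0.11 (adjusted p = 0.0168), a call lost without rosiglitazone muscle 1 (0.37) or macroangiopathy muscle 3 (0.38). Next by the naming rule, none past adjustment, were Sfrp2 at 0.61 ± 0.25, Dkk2 at 0.48 ± 0.18, Fzd5 at -0.43 ± 0.15 and Wnt11 at -0.42 ± 0.16. The Sfrp1 probe above background on all muscle arrays was at 9.35, 8.88 and 9.06, its lowest value level with the highest of macroangiopathy (8.88), and its difference of 0.36 was not called when taken alone (adjusted p = 0.115), while the probe not above background gave 0.55. Among the markers Myh4 was lower (-0.51, adjusted p = 0.0121) and Csf1r higher (0.43, adjusted p = 0.0195), and their part was not tested. Every huoxue and rosiglitazone muscle array lay on slides 1 and 2 and no macroangiopathy array did, so slide and treatment cannot be told apart in both comparisons. With slide as a random block none of these genes was called (adjusted p of 0.101 for Sfrp5 and 0.247 for Sfrp1 under huoxue, and 0.077 for Sfrp1 under rosiglitazone).

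**Figure D4:**
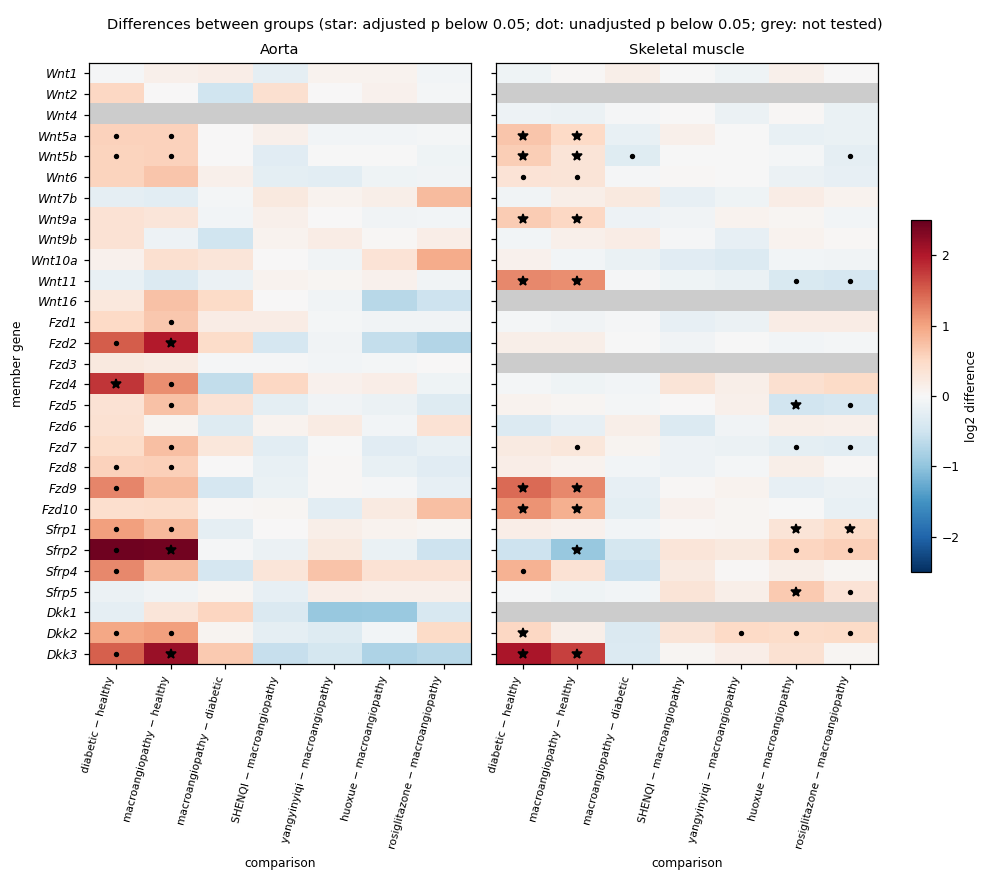
Log2 difference of each of 29 genes (y axis) in 7 comparisons (x axis), in aorta and skeletal muscle. Colour gives the difference, a star an adjusted p below 0.05, a dot an unadjusted p below 0.05 and grey a gene not tested. Stars sit in the comparisons with healthy mice (1 and 3 in aorta, 8 and 8 in muscle) and in muscle under huoxue (3) and rosiglitazone (1).

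The rest of the pathway was read from a list of 68 genes, 65 of them on the array, covering co-receptors, R-spondins, other inhibitors, secretion, cytoplasm, nucleus and common target genes. In aorta, 60 were tested and 2 rose in each comparison with healthy mice and none fell, where 3.43% and 6.37% of all genes were called. Frzb, the secreted inhibitor also called Sfrp3, which its array name keeps outside the family rule, rose in both, by 2.37 ± 0.44 in diabetic mice (5.16-fold, adjusted p = 0.00755) and 2.67 ± 0.44 in macroangiopathy (adjusted p = 0.00318). The other calls were Rspo1, an R-spondin that enhances the signal, at 1.01 in diabetic mice, and Nkd1, a feedback inhibitor, at 1.76 in macroangiopathy. Without slides 1, 2 and 3 the aorta Frzb differences were 1.68 and 2.03 and were not called (adjusted p = 0.281 and 0.134), and with slide as a random block they were 2.38 and 2.63 and were called (adjusted p = 0.0078 and 0.00606).

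In muscle 54 pathway genes were tested. In diabetic mice 10 rose (Frzb, Lrp5, Lrp6, Gpc3, Gpc4, Kremen1, Dvl1, Daam1, Nkd2 and Wisp2) and 6 fell (Tcf7l1, Bcl9, Myc, Ccnd1, Cd44 and Vangl1), and in macroangiopathy 7 rose and 5 fell. The called genes were 16 and 12 of 54, where 26.5% and 24.9% of all genes were called. Frzb ranged from 5.90 to 7.27 in healthy and 8.56 to 8.88 in diabetic muscle, a rise of 2.08 ± 0.27 (4.24-fold, adjusted p = 3.34e-05). Tcf7l1, a factor that mostly represses target genes, fell by 1.69 on the log2 scale (adjusted p = 1.43e-05). Of the common targets, Myc and Ccnd1 fell by 1.11 and 0.75 and Cd44 by 0.64, whereas Wisp2 rose by 0.51. The Myc groups overlapped, with 8.88, 7.52 and 8.77 in healthy and 7.14, 7.69 and 7.03 in diabetic muscle. So did those of Cd44, with 7.78, 7.49 and 8.77 against 7.31, 7.60 and 7.21. Ccnd1 was at 8.96, 7.98 and 7.61 against 7.45, 7.26 and 7.60, nearly touching. Wisp2 was at 7.56, 8.01 and 7.99 against 8.47, 8.15 and 8.46. Lrp6, a co-receptor, rose by 0.63 (adjusted p = 0.000841). Its partner Lrp5 rose 2.02-fold in macroangiopathy (adjusted p = 0.00574). Without slides 1, 2 and 3, which leaves healthy muscle 3 alone, its log2 difference was 0.09. All arrays of slides 1 and 2 had Lrp5 between 6.13 and 6.91 against 8.14 to 8.46 on the remaining muscle arrays. Frzb without those slides differed by 2.83 in diabetic muscle. Healthy muscle 3, the only healthy array then left, had the lowest Frzb of the healthy muscles (5.90). Under huoxue 5 pathway genes rose and 5 fell in muscle, and under rosiglitazone 4 fell, Lrp5 among them in both, where 17.7% and 5.51% of all genes were called.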

How the data were processed

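Gene expression was measured in aorta and skeletal muscle of 7 groups of mice, 3 mice per group and tissue, by 42 one-colour arrays on 11 slides. The deposited scanner files, read by Agilent Feature Extraction 10.7 per the submitters' processing notes, hold the median spot intensity and local background intensity without normalisation. The authors' value table holds log2 values, background corrected and quantile normalised per the methods, and served only as an alternative. Gene names came from 8 scanner files and were joined by probe to the other 34.

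Intensities were background corrected with limma 3.58.1 (normexp, offset 0), quantile normalised over 42 arrays and taken to log2 in R 4.3.3 (the data.table package, version 1.17.8, read the files). After correction the control spots were dropped, and spots marked as outliers were left out. Spots were averaged per probe and probes per gene. Quantile normalisation holds the distribution of every array equal, so differences are relative to the rest of the array.

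Groups came from the sample titles. Per tissue, limma lmFit and eBayes were fitted to 21 arrays and 7 group means, with Benjamini-Hochberg adjustment over 15844 genes in aorta and 14201 in muscle, and a call at an adjusted p below 0.05. Aorta against muscle, and aorta change minus muscle change, used 42 arrays and 14 means over 16176 genes. The fitting was tested on simulated data. The number of arrays limits the precision, and no 2 arrays were duplicates. The samples are labelled as separate replicates of a group, and p-values measure only the spread between them.

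The members and the gene lists were chosen with earlier results of these data known. The genes named were all called members (the 6 largest differences where over 6 were called). Where fewer than 3 were called, up to 4 more were named, with an unadjusted p below 0.05 and no overlap of the groups, and between tissues the 6 largest differences each way. A clause of the rule that ranks genes by level was not used, since probes have unlike responses. Pathway and cell type lists were scored in the same fit. Alternatives changed the background offset, the scaling, the filter on dim probes, the probe summary, the arrays in the fit, the slide and replicate blocks and single arrays. Promoter sequences and motifs used RefSeq on GRCm38.p6, and probe positions are those of the array annotation on mm9.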

Additional observations from a re-analysis of the deposited data

Results flagged for a closer look

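Tests of aorta change minus muscle change picked out 4 values, each a difference between the tissues in the response to the same contrast. For diabetic against healthy mice, Fzd4 differed by 1.835 and Sfrp2 by 2.955. For macroangiopathy against healthy mice, Sfrp2 differed by 3.354 and Wnt11 by -1.507. The Fzd4 and Sfrp2 differences of the diabetic comparison were close to the threshold. Over 50 alternatives, which included leaving out each array in turn, the call was lost in 30 for Fzd4 (adjusted p up to 0.149) and in 35 for Sfrp2 (up to 0.121), with the direction unchanged in all of them. For macroangiopathy it was lost in none for Sfrp2 (up to 0.0342) and in 3 for Wnt11 (up to 0.0657). None of the 50 left out slides 1, 2 and 3 together or took slide as a block, so the part of slide in these differences was not tested. Without healthy aorta 1 the Sfrp2 differences were 1.858 and 2.257.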

How the results depend on the processing

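Members called were recounted under each alternative. In diabetic aorta (1 in the report) there were 2 with the 75th percentile scaling, the brightest probe or the authors' value table, 7 with all 42 arrays in the fit, 3 with 12 arrays and tissue as a term, and 0 with only the 6 arrays compared, slide as a fixed block or slides 1, 2 and 3 left out. Leaving out single arrays gave 1 to 5. In macroangiopathy aorta (3) there were 11 with 42 arrays and 0 with 6 arrays, slide as a random block or those slides left out, and 0 to 8 with single arrays left out, 8 without healthy aorta 2 and 0 without healthy aorta 1 or 3 or any macroangiopathy aorta. In diabetic muscle (8) there were 3 with 6 arrays and 4 with 12, and 7 to 9 without single arrays. In macroangiopathy muscle (8) there were 3 with 6, 12 or 42 arrays, and 6 to 9 without single arrays. With 12 arrays and a tissue term, which gives both tissues 1 common change, Sfrp2 in macroangiopathy was at 0.727, reversed for muscle.

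Under huoxue in muscle (3) there were 7 with 6 arrays, 1 with 42 arrays, an offset of 50 or quantile normalisation within tissue, 0 with 12 arrays or slide as a random block, and 1 to 2 without single arrays. Under rosiglitazone in muscle (1) there were 4 with 6 arrays, 2 with the 75th percentile or no filter, 0 with 42 arrays, 12 arrays, the brightest probe or slide as a random block, and 0 to 1 without single arrays. The tissue differences in response (4) fell to 1 with the 75th percentile or the authors' table and 2 with normalisation within tissue, and were 1 to 6 without single arrays. Aorta against muscle (29) gave 19 under the stricter filter and 12 in healthy mice alone. The cause of these shifts was not tested, beyond the fewer arrays or genes some settings use.

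No pairing by replicate number was seen. The 21 pairs checked were 2 groups of a tissue or the 2 tissues of a group. In 0 of them was every correlation of same-numbered deviations over 0.1 (range -0.533 to 0.598). With 3 arrays on each side this check cannot show that samples were unpaired. Whether aorta and muscle of a group came from the same mice remains unknown, and the fits treat them as separate. With the replicate block 2 members were called in diabetic aorta and 5 in macroangiopathy aorta, and the other counts stayed within 1.5 times. Dim probes limit Fzd5, Wnt5a and Wnt9a, and the aorta comparisons rest on 3 healthy arrays of which 1 stood apart.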

Other observations

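Rosiglitazone aorta 1 was the highest of the 21 aorta arrays by more than 1 log2 unit for 3 tested genes, Wnt10a (9.91), Wnt7b (8.52) and Fzd10 (8.89), and Wnt4, which was not tested in aorta, was at 9.72 there. The keratins Krt5, Krt13, Krt4 and Krt14, chosen after their values were seen, were at 15.27, 15.29, 15.13 and 11.59 on the same array. The highest values on any other aorta array, all on huoxue aorta 1, were 10.30, 10.31, 9.84 and 7.75. Krt8 and Krt18 were not raised there, at 6.12 and 9.05 against medians of 6.14 and 9.50 on the other aorta arrays. The skeletal muscle markers of this array summed to 17.41, the second highest of the aorta arrays after 18.51. The part of these transcripts in the Wnt and Fzd10 values was not tested.

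Healthy muscle 3 was the lowest muscle array for Sfrp4, at 7.25 against 9.44 and 9.17 in the other healthy muscles. Its macrophage markers summed to 12.19, against 10.86 and 10.78 there, and its fibroblast markers to 12.13, against 13.43 and 13.28.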
